A study of Mus musculus with 4 samples.

Results

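Ccr6+ LTi/ILC3-like cells are the αLPs of mouse bone marrow that carried *Ccr6*, the gene of a chemokine receptor. They were chosen from the single-cell values themselves. With the value of a gene in a cell written as ln(1 + reads per 10000), a member had at least 1 for *Id2* and for *Ccr6* and under 1 for *Il1rl1* (the gene of ST2), *Cd3e* and *Mki67*. The limits were met by 150 of the 8322 cells kept, of which 7013 were *Id2*+. Members of experiment 1 were 2 WT and 2 G3SEKO cells, and those of experiment 2 were 39 WT and 107 G3SEKO cells.

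αLPs are marrow cells sorted as negative for lineage markers and FLT3 and positive for CD127 and LPAM-1, a fraction that holds progenitors and mature cells of the innate lymphoid lineages. They came from male and female C57BL/6J mice aged 6 to 12 weeks, pooled from 10 WT and 8 G3SEKO mice in experiment 1 and from 7 WT and 9 G3SEKO mice in experiment 2. G3SEKO mice lack in every cell the tandem super-enhancers downstream of *Gata3*, which were deleted in the germline with CRISPR/Cas9, and no agent was given. The mutant line used was not given in the sources used here. Cells of both genotypes were marked with hashtag antibodies and sequenced in 1 library per experiment, so each genotype gives 1 sample per experiment. Experiment 1 had several hashtags per genotype, and what a hashtag stands for among the pooled mice was not given in the sources used here. The labels list both hashtags of experiment 2, A0302 and A0303, under WT, whereas the cells of A0303 are taken here as G3SEKO, so every G3SEKO value of experiment 2 rests on that assignment. *Il1rl1*+ cells were 3515 of the 5130 *Id2*+ cells with A0302 and 48 of the 1159 with A0303. The files hold reads and not molecules. Members held 1566443 WT and 2434470 G3SEKO reads in experiment 1, and 1986731 WT and 5730199 G3SEKO reads in experiment 2, with medians per cell of 33886 and 42490 in experiment 2.

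LTi cells are the lymphoid tissue inducer cells of the group 3 innate lymphoid cells, or ILC3s. They prompt the formation of lymph nodes and Peyer's patches by presenting lymphotoxin to stromal cells. ILC3s respond to IL-23 and IL-1, and LTi-like ILC3s of adult tissues can carry MHC class II, the molecule on which antigen-presenting cells show peptides to CD4 T cells.

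Of the gene lists examined, that of MHC class II had the most genes called higher in members than in the other cells. Promoters of many MHC class II genes hold an element known as the Y box, whose core GATTGG and its reverse complement CCAATC are bound by the factor NF-Y in promoters of many kinds. The 250 bases before the start of 3 genes that were higher in members and, for contrast, of *H2-Ob*, for which no difference was called, are shown from 5′ to 3′ along each gene's own strand, with the core in either orientation in capitals (RefSeq, GRCm38.p6).
H2-Aa, chr17:34287824-34288073, minus strand: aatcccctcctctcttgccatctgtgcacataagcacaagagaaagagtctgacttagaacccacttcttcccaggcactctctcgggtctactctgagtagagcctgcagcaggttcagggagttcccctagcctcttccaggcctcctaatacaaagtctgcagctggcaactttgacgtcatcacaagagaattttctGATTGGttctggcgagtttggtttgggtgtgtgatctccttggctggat
H2-Eb1, chr17:34305617-34305866, plus strand: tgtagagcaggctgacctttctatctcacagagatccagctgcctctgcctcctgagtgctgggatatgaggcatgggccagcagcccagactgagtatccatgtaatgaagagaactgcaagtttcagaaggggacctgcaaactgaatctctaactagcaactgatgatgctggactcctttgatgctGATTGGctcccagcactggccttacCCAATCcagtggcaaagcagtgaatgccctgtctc
H2-DMb2, chr17:34144999-34145248, plus strand: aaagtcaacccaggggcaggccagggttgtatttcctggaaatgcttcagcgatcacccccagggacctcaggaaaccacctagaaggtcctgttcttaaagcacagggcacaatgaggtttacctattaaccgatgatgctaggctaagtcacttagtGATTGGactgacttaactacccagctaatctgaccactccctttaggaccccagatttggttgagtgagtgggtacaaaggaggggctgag
H2-Ob, chr17:34238655-34238904, plus strand: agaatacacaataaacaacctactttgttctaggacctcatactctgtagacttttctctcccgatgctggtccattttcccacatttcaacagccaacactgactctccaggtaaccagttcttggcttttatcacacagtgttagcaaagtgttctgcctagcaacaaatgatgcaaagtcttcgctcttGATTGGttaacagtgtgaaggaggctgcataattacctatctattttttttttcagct
The core began 49 bases before the start in *H2-Aa*, 60 and 35 bases before it in *H2-Eb1*, 91 in *H2-DMb2* and 58 in *H2-Ob*. It was present in 7 of the 9 promoters listed for 8 of the 13 genes of the MHC class II list, against 14.6% of all 32851 promoters of the table and 18.3% of the 14770 promoters of genes tested below. *H2-Ab1*, *Cd74*, *Ciita*, *Cd40* and *Cd86* were not in the table. *Cd80* and the first of the *H2-DMa* promoters lacked these letters in the window. Among promoters of the genes called higher in members, 15.2% of 105 held it, and among those of the genes called lower, 3.77% of 53. A match is a description of the letters and not of binding, and *H2-Ob* had the core although its level was not called different.

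*Ccr6* (GRCm38, chromosome 17, 8236043 to 8257141, plus strand) divided the cells with few near the limit. In members of experiment 2 its highest value was 3.90, with 2 to 270 reads in a cell and a median of 44.5. The lowest members had 1.06, 1.08 and 1.08, and the highest cells outside had 0.99, 0.94 and 0.92. Of the 2447 other *Il1rl1*-low *Id2*+ cells that met every limit but that on *Ccr6*, 45 had any *Ccr6* read (1.84%), of which 14 reached 0.5. In experiment 1 the lowest member had 1.26 and the highest cell outside 0.13.

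The label of LTi/ILC3-like cells was checked on genes that the limits did not use. CPM below are the reads of a gene per 1e6 reads of the summed cells, given for WT and then G3SEKO cells of experiment 2 unless stated. Members and the other *Il1rl1*-low *Id2*+ cells of the same sample were compared with edgeR's quasi-likelihood test on summed reads, with the sample as a block and the Benjamini-Hochberg adjustment over 17768 genes. Only the 2 samples of experiment 2 had at least 5 members. The p-values therefore set a change against how far the ratio of members to other cells differed between the WT and the G3SEKO pair. That leaves 1 residual degree of freedom per gene, to which the quasi-likelihood fit adds information shared over all genes. Without the block no gene was called. In the blocked fit 98 genes (0.552%) were higher in members and 53 (0.298%) were lower, together 0.850% of those tested, and the median log2 change of all genes tested was −0.26.

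Of the markers named for these cells, *Il23r*, *Il1r1* and *Lta* were higher in members and *Cxcr5* did not pass the test. These markers had been picked with earlier results of the same cells known, so their direction is not independent evidence. *Il23r* (chromosome 6, 67422932 to 67491855, minus strand) encodes the specific chain of the IL-23 receptor and had 115 and 235 CPM in members, 2.97 and 3.92 in the other cells and 0.124 and 4.60 in *Il1rl1*+ cells, and at 88.1 and 375 CPM in the WT and G3SEKO members of experiment 1. Every sample of members lay above every other class, with a log2 change against the other *Il1rl1*-low cells of 5.65 ± 0.50 (SE, n = 2 pairs, adjusted p = 0.000783). Reads of it were found in 33.3% and 46.7% of members and in 0.738% and 2.30% of the other cells. *Il1r1*, the signalling receptor of IL-1, was at 330 and 295 CPM in members against 29.5 and 63.8 (log2 change 2.91, adjusted p = 0.0076). *Lta*, the gene of lymphotoxin α, was at 146 and 272 CPM against 15.99 and 39.2 (3.05, adjusted p = 0.00449). *Cxcr5*, the receptor of the follicle chemokine CXCL13, was at 399 and 176 CPM against 69.9 and 135, and its log2 change of 1.51 had an adjusted p of 0.246.

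Of the 18 tested transcription factors from the list of LTi cells and ILC3s, 1 was higher and 3 were lower. *Nr1d1*, the nuclear receptor REV-ERBα, was higher (239 and 311.3 CPM against 43.3 and 105, log2 change 2.07, adjusted p = 0.0271). *Ikzf2*, *Ikzf3* and *Rora* were lower, and the list's median was −0.15. *Ikzf3*, the zinc finger factor Aiolos, was at 21.6 and 51.5 CPM in members and at 321 and 578 in the other cells. Of the other genes by which LTi cells are known, *Kit* was at 308.5 and 329 CPM against 106 and 179, *Il7r* at 3554 and 3118 against 2068 and 2360, and *Ltb*, lymphotoxin β, at 1897 and 1795 against 1178 and 942. None of these 3 passed the test. *Tnfsf11*, the ligand RANKL, was at 13.6 and 19.9 CPM in members and at 41.3 and 21.8 in the other cells. *Cd4*, which marks a subset of LTi cells, had reads in 10.3% and 6.54% of members, but CD4 was among the antibodies of the lineage mixture that removed cells before the sort. *Ncr1*, the gene of NKp46, had reads in 2.56% and 10.3%.

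Some cytokine receptors were higher. Of 21 tested, 5 were higher (*Ifngr1*, *Il17re*, *Il18rap*, *Il1r1* and *Il23r*) and *Il17rb*, a chain of the IL-25 receptor, was lower, with a median of 0.65. *Il17re*, a chain of the IL-17C receptor, was at 141 and 257 CPM against 9.26 and 24.7 (log2 change 3.71, adjusted p = 0.00246). *Ifngr1*, of the interferon-γ receptor, was at 1141 and 1372 CPM against 120 and 322 (2.73, adjusted p = 0.00258). Of 6 ILC3 cytokines listed, 4 were tested with no call and a median of 0.86, and *Il22* and *Il17a* were not analysed here.

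In the TNF superfamily, through which LTi cells signal to stroma, 3 of 14 genes were higher and none lower, with a median of 1.11. Besides *Lta* these were *Tnfsf8*, the CD30 ligand, at 39.3 and 128 CPM against 0.862 and 2.26 (adjusted p = 0.00391), and *Tnfrsf11a*, the receptor RANK, at 104 and 72.8 CPM against 10.5 and 4.17 (adjusted p = 0.0214). The *Tnfsf8* reads came from 31 members. Of 12 other surface genes of LTi cells, *Nrp1*, which encodes neuropilin-1, was higher at 162 and 200 CPM against 19.9 and 40.5 (2.72, adjusted p = 0.0131).

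Of the genes of MHC class II, the 3 chains *H2-Aa*, *H2-Ab1* and *H2-Eb1* and *Cd74* rose with the lowest adjusted p-values. Of 12 tested members of a list of 13, 7 were higher (*Cd74*, *Ciita*, *H2-Aa*, *H2-Ab1*, *H2-DMa*, *H2-DMb2* and *H2-Eb1*) and none lower, 10 had a positive log2 change and the median was 3.02. Summed over the list, members had 16733 WT and 21051 G3SEKO CPM, the other cells 954 and 1370, and *Il1rl1*+ cells 538 and 593. In experiment 1 the 2 WT members summed to 23368 CPM and the 2 G3SEKO members to 4375, against 387 and 363 in the other cells, so all 4 samples of members lay above all samples of the other cells.

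**Figure D1:**
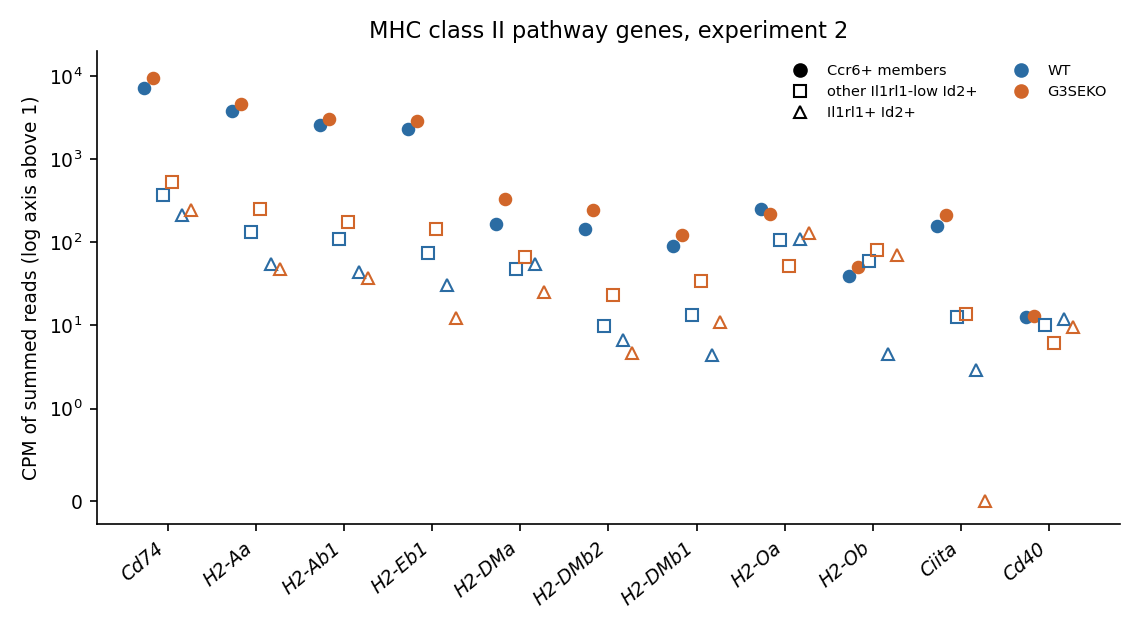
Level of each MHC class II pathway gene in summed cells of experiment 2 (y axis, CPM on a log axis above 1; blue WT, orange G3SEKO; filled circles members, squares other *Il1rl1*-low *Id2*+ cells, triangles *Il1rl1*+ cells; 1 sum per point). *Cd74* is at 7220 and 9371 CPM in members against 374 and 523 in the other cells, whereas *H2-Ob* and *Cd40* lie close together in members and other cells.

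*H2-Aa* (chromosome 17, 34282744 to 34287823, minus strand), the α chain of I-A, was at 5516 and 747 CPM in the WT and G3SEKO members of experiment 1. In experiment 2 it was at 3824 CPM (95% Poisson interval 3738 to 3911, which like all intervals here covers counting error only) in WT and 4590 (4534 to 4645) in G3SEKO members. The other cells had 134 and 254 CPM, giving a log2 change of 4.57 ± 0.24 (adjusted p = 2.78e-05). No sample of the other cells reached a sample of members. *H2-Ab1*, the β chain, rose by a log2 change of 4.41 and *H2-Eb1*, the β chain of I-E, by 4.69 (adjusted p = 2.78e-05 for each). *Cd74*, the invariant chain that guides these molecules to the peptide-loading compartment, was at 7220 (7103 to 7340) and 9371 (9292 to 9450) CPM in members (log2 change 4.28 ± 0.19, adjusted p = 1.54e-05).

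*Ciita* (chromosome 16, 10480059 to 10528418, plus strand) encodes the coactivator that sets MHC class II transcription and was at 155 and 212 CPM in members against 12.7 and 13.8 (3.84, adjusted p = 0.00246). The WT members of experiment 1 had 307.7 CPM of it and the G3SEKO members 0.411, so the latter did not share its level. The peptide-exchange genes *H2-DMa* (164 and 330 CPM against 47.9 and 66.4) and *H2-DMb2* (146 and 244 against 9.74 and 23.0) rose as well. *H2-DMb1*, a close paralog of *H2-DMb2* with which reads may be shared, was at 89.1 and 122 CPM against 13.4 and 34.4 with an adjusted p of 0.0783. *H2-Oa* (adjusted p = 0.0831) and *H2-Ob* (39.8 and 50.4 CPM against 60.1 and 80.9), which encode the inhibitor of peptide exchange, did not pass.

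The costimulatory genes were low. *Cd80* was at 1.01 and 0.873 CPM, *Cd40* at 12.6 and 13.1 against 9.98 and 6.20 in the other cells, and *Cd86* had no read in members of experiment 2, in which 3 reads would be 1.51 CPM in WT and 0.524 in G3SEKO cells. *Cd86* was at 80.4 CPM in the 2 WT members of experiment 1. *Cd83*, a stabiliser of surface MHC class II, was at 114 and 213 CPM against 26.4 and 8.03 (adjusted p = 0.054).

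The genes of the classical chains and *Cd74* were found in most members, and the regulator and peptide-exchange genes in a minority. Of 146 members of experiment 2, reads were found in 140 for *Cd74*, 123 for *H2-Ab1* and 119 for *H2-Eb1*, but in 65 for *H2-DMa*, 56 for *H2-DMb2* and 40 for *Ciita*. *H2-Aa* reads were in 84.6% and 87.9% of members, against 9.79% and 14.3% of the other cells and 10.1% and 12.5% of *Il1rl1*+ cells. After cells were thinned to the read limit of experiment 2, the shares were 82.1% and 86.9% of members and 7.11% and 9.31% of the other cells. Of all 146 members, 123 had an *H2-Aa* value of at least 1 (84.2%), and 11 had no read of *H2-Aa*, *H2-Ab1* or *H2-Eb1*.

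**Figure D2:**
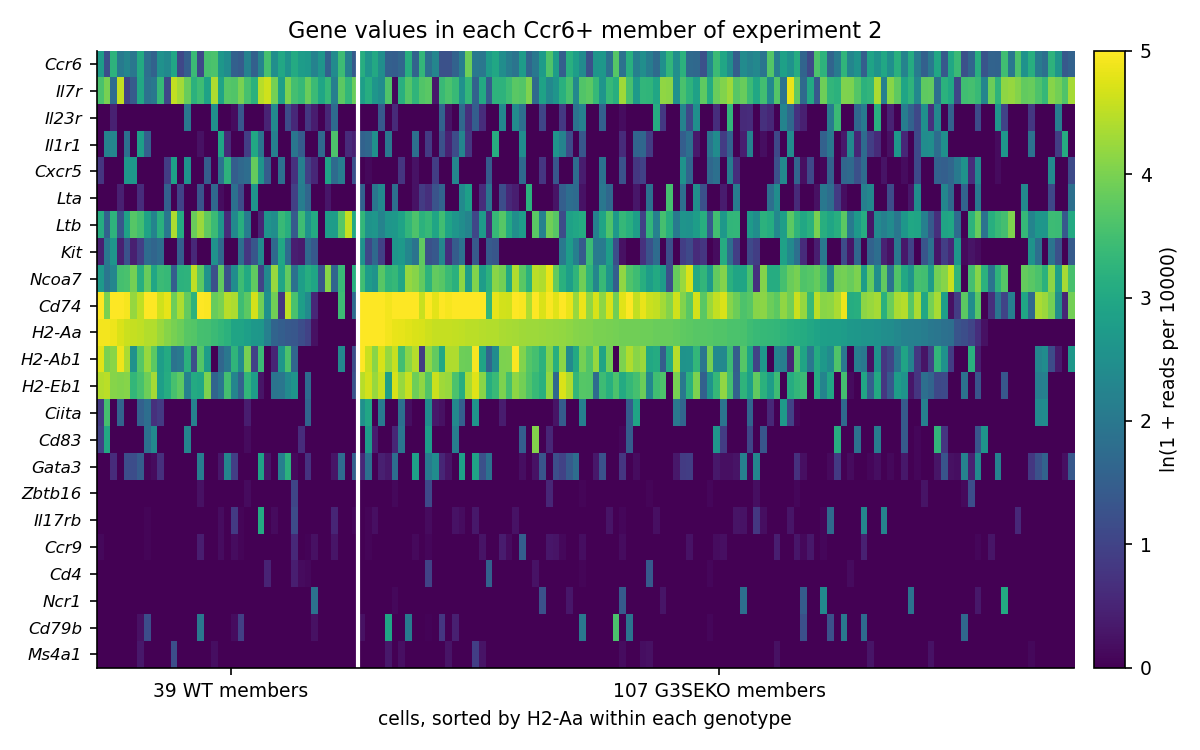
Value of 23 genes (rows) in each of the 146 members of experiment 2 (columns, sorted by *H2-Aa* within the 39 WT and the 107 G3SEKO cells; colour, ln(1 + reads per 10000)). *Ncoa7* and *Cd74* are present across nearly all cells, *Il23r*, *Il1r1*, *Cxcr5* and *Lta* appear in scattered cells, and *Zbtb16*, *Ccr9* and *Ms4a1* are nearly empty.

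Members were also divided by *H2-Aa* to see which other genes went with it. The 123 cells with a value of at least 1 and the 23 below it had 209 and 174 CPM of *Il23r* and 3329 and 3211 of *Ncoa7*, with median reads of 42297 and 40781 per cell. They differed in *Cd74* (9983 and 1722 CPM) and *Ciita* (210 and 120), which are part of the same pathway, and in *Cd79b* (65.9 and 0.919), a B cell receptor chain. *Cd83* was at 206 and 73.5 CPM and *Zbtb46*, a dendritic cell factor, at 39.2 and 4.59, while *Ighm* (88.7 and 111) and *Batf3* (146 and 182) were at the lower level in the cells with *H2-Aa*. *Kit* reads were found in 72.4% and 34.8% of these cells and *Lta* reads in 48.8% and 26.1%. These cells were divided by a measured value, so the values are descriptions with no test. Among the other *Il1rl1*-low cells, 84 of 1491 WT (5.63%) and 78 of 956 G3SEKO cells (8.16%) had such an *H2-Aa* value. Those cells had 585 and 1098 CPM of *Ncoa7* against 83.4 and 68.4 in the rest, and 17.8 and 33.8 of *Il23r* against 2.11 and 1.04. In *Zbtb16*+ cells *Ncoa7* went the other way, with 3.99 and 25.9 CPM in the 9 and 17 cells with *H2-Aa* against 69.4 and 66.0 in the rest. *Il23r* was there at 0 and 0.632 CPM against 7.16 and 0.288.

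The ILC3 markers were scattered over the members. Of 146, 18 had reads of none of *Il23r*, *Il1r1*, *Cxcr5* and *Lta*, 33 of 1, 54 of 2, 35 of 3 and 6 of all 4. At least 1 of them was found in 128 members (87.7%), which were 36 of 39 WT and 92 of 107 G3SEKO members. In the other 18 members no read was found of the markers named for these cells except *Ccr6*. A lack of reads in single cells does not show that the transcript was absent.

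*Ncoa7* (chromosome 10, 30628999 to 30803326, minus strand), a nuclear receptor coactivator gene, marked nearly all members. Members had 2570 and 3570 CPM of it in experiment 2 and 4489 and 2717 in experiment 1, against 111 and 159 in the other cells, and was found in 97.4% and 97.2% of members. Its log2 change was 4.57 ± 0.23 (adjusted p = 2.78e-05). Other called genes were looked up after their values were seen. *Sdc4* (syndecan-4) was at 1545 and 1415 CPM against 152 and 77.1 (adjusted p = 0.000605). *Tmem176b* was at 2594 and 2616 against 479 and 529 (adjusted p = 0.000783). *Cd82*, a tetraspanin, was at 1388 and 1734 against 480 and 410 (adjusted p = 0.00654). *Nfkb2*, the NF-κB subunit that acts downstream of lymphotoxin and RANK receptors, was at 397 and 385 against 121 and 51.1 (adjusted p = 0.0202).

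The 10 genes with the largest rise by size were each found in a minority of members. They were *Ip6k3*, *M1ap*, *Adgre1*, *Pdgfa*, *Tgm2*, *Cx3cl1*, *Rasl11a*, *Gpr162*, *Tnfsf8* and *Fam129b*, with reads in 5 (*Ip6k3*) to 44 (*Gpr162*) of the 146 members. With a *Ccr6* limit of 1.5, 4 of them lost the call, with log2 changes of 4.32 in place of 9.03 for *Ip6k3*, 4.80 in place of 7.79 for *Adgre1*, 3.52 in place of 6.89 for *Pdgfa* and 4.25 in place of 5.75 for *Gpr162*. *Rasl11a*, a small GTPase gene, was at 96.6 and 126 CPM from 43 members (log2 change 5.98, adjusted p = 0.00145), and *Cx3cl1*, the chemokine fractalkine, at 59.4 and 79.4 CPM from 26. *Adgre1*, known as the macrophage antigen F4/80, was at 37.2 and 43.3 CPM from 10 members, while of the 10 genes of the myeloid list 4 were tested with no call, and the whole list summed to 6.54 and 7.16 CPM against 8.05 and 18.6 in the other cells.

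Several genes of ILC2s and of ILC progenitors were lower. Of 13 ILC2 genes 5 were lower (among them *Bcl11b*, *Icos*, *Il17rb* and *Rxrg*) and none higher, with a median of −3.51, and of 10 progenitor genes 3 were lower (*Bcl11b*, *Ikzf3* and *Zbtb16*) with a median of −1.29. *Bcl11b* stands in both lists. *Zbtb16*, the progenitor factor PLZF, was at 8.56 and 9.95 CPM in members, 272 and 433 in the other cells and 3.19 and 6.98 in members of experiment 1 (log2 change −5.17 ± 0.40, adjusted p = 0.000448). *Bcl11b*, a T cell and ILC2 factor, was at 25.2 and 10.99 against 325 and 426, and *Il17rb* at 45.3 and 18.0 against 478 and 516. Against *Il1rl1*+ cells no gene of either list was called, and the medians were −3.53 for the ILC2 and 0.50 for the progenitor genes.

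Homing receptors differed in 2 of 19 genes, both lower, with a median of −0.48. *Ccr9*, which guides lymphocytes to the small intestine, was at 8.05 and 9.07 CPM against 424 and 220 (−5.04, adjusted p = 0.000783), and *Ccr2*, a receptor of inflammatory chemokines, at 41.8 and 78.5 against 639 and 928 (−3.68, adjusted p = 0.000632). Of the 10 genes with the largest fall, *Hes1*, *Mettl27*, *Col16a1*, *Tnni1*, *Cela1* and *Lrrc52* had no read in members of experiment 2. *Hes1*, a target of Notch signalling, was at 44.8 and 84.5 CPM in the other cells, so it was at least 29.6-fold lower in WT and 161-fold lower in G3SEKO members when 3 reads per sum are taken as the floor. The remaining 4 were *Fgf3*, *Rab44*, *P2rx7* (0.503 and 0.175 CPM against 66.7 and 107) and *Cpa3*, a mast cell protease gene (0.503 and 0.175 against 58.9 and 92.7).

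**Figure D3:**
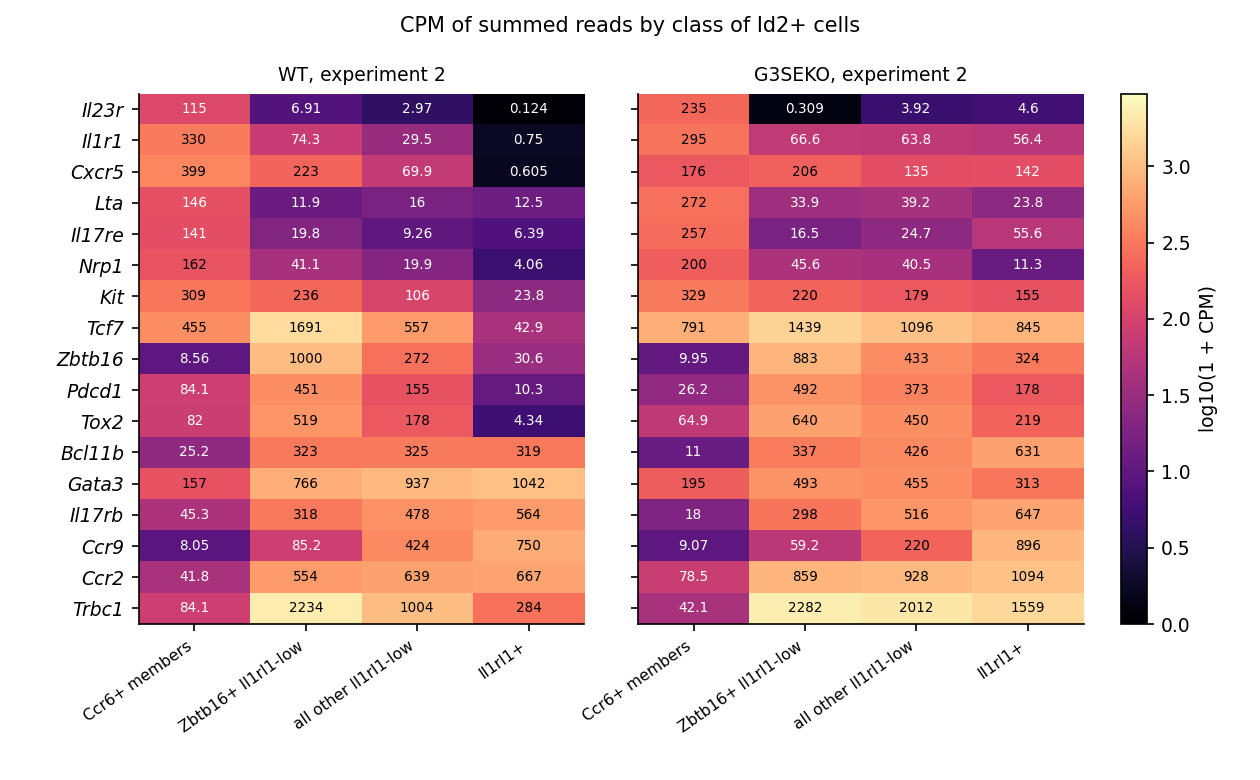
CPM of 17 genes (rows) in 4 classes of summed *Id2*+ cells of experiment 2 (columns; left WT, right G3SEKO; colour, log10(1 + CPM), with the CPM printed; the class of all other *Il1rl1*-low cells holds the *Zbtb16*+ cells too). Members carry *Il23r* at 115 and 235 CPM and *Ccr9* at 8.05 and 9.07 CPM, whereas *Il1rl1*+ cells carry 0.124 and 4.60 CPM of the first and 750 and 896 of the second (the level of *Zbtb16* in *Zbtb16*+ cells was set by their choice).

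The classes differ in depth and make-up, so members were also compared with 2 other classes. Against the 3563 *Il1rl1*+ *Id2*+ cells of experiment 2, of which 48 were G3SEKO, 4 of 12393 genes (0.0323%) were higher in members and 1 (0.00807%) was lower, together 0.0403%, with 544 higher and 448 lower at an unadjusted p under 0.05. The 4 were *H2-Aa* (log2 change 6.38 ± 0.36), *H2-Ab1* (6.12) and *Cd74* (5.18 ± 0.31), each with an adjusted p of 0.0278, and *Ncoa7* (5.73 ± 0.40, adjusted p = 0.0446). The lower gene was *Ccr9*, at 750 and 896 CPM in *Il1rl1*+ cells (−6.57 ± 0.39, adjusted p = 0.0278). Of the lists, 3 of 11 MHC class II genes tested were higher with a median of 5.03 against −0.05 for all genes tested.

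Against the *Zbtb16*+ *Il1rl1*-low cells, a comparison added after the data were seen, 45 of 14846 genes (0.303%) were higher and 21 (0.141%) lower, together 0.445%, with a median of −0.18. *Cd74*, *H2-Aa*, *H2-Ab1* and *H2-Eb1* were again higher, as were *Ltb* and *Tnfsf8*, and 4 progenitor genes were lower, *Tox2* besides the 3 above. Of *Il23r*, *Il1r1*, *Cxcr5* and *Lta*, none (0 of 4) was called against either of these classes, with medians of 5.19 against *Il1rl1*+ and 2.81 against *Zbtb16*+ cells. *Zbtb16* chose those cells, so its own fall there is no result.

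Experiment 1 gave a look at the same genes in 4 cells that entered neither of the tests above. Of the 98 higher genes 96 were in its table, and 61 of them (63.5%) had a positive log2 ratio of members to the other cells in both genotypes, against 8.17% of all 17569 tested genes in the table. Of the 53 lower genes 50 (94.3%) were negative in both genotypes, against 60.6% of all. The ratios of all tested genes had medians of −3.69 in WT and −1.37 in G3SEKO cells. The shares of all genes were not matched for level, so part of these differences may reflect how well genes were detected. All 4 genes higher against *Il1rl1*+ cells were positive in both genotypes and *Ccr9* was negative in both.

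Markers of other lineages were compared in the same way, and their part in the results was not tested. Of 7 B lineage genes tested none was called, 6 had a positive log2 change and the median was 0.28. Summed over the list, whose largest part in the other cells is *Ighm*, the level was 110 and 212 CPM in members against 300.8 and 361 in the other cells. *Ms4a1* was at 3.02 and 4.19 CPM, *Pax5* at 3.02 and 0, *Ebf1* at 0 and 0.175 and *Ighm* at 51.8 and 106 against 251 and 286 in the other cells. *Cd79b* was at 41.8 and 62.0 CPM against 39.1 and 59.2, and its reads were in 15.4% and 14.0% of members. Since MHC class II also marks B cells and dendritic cells, these levels stand beside it. Of 6 dendritic cell genes *Bst2* was higher (464 and 363 CPM against 93.7 and 78.7, adjusted p = 0.00573), the median was 1.42, and the summed level was 846 and 666 CPM against 194 and 283. Within that list *Siglech* had no read in members of experiment 2 and *Flt3*, against which the sort selected, was at 10.1 and 13.3 CPM. *Batf3* was at 242 and 120 CPM against 15.2 and 50.6 (adjusted p = 0.118).

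Of 18 T lineage genes *Trbc1* (84.1 and 42.1 CPM against 1004 and 2012) and *Trgc4* (95.1 and 10.3 against 680 and 1223) were lower and none higher, with a median of −1.81. These T cell receptor constant genes have near copies among which reads may be split. Of 13 NK and ILC1 genes only *Ccl5* was called, lower, with a median of −2.37, and of 10 proliferation genes none, with a median of −1.16. The 4 erythroid and the 4 γδT17 genes tested had no call (medians 0.67 and 0.58). One listed gene, *Blk*, had a log2 change of 6.89 with an adjusted p of 0.0831, and was called in 5 of 9 alternative settings. The 9 immediate early genes, which rise when cells are dissociated, had no call and a median of 0.34. Against the *Zbtb16*+ cells *Junb* was called higher, 8 of the 9 had a positive log2 change and the median was 0.99.

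The share of members differed between genotypes. In experiment 1 they were 2 of 240 WT (0.833%, exact binomial 95% interval 0.101 to 2.98) and 2 of 39 G3SEKO *Il1rl1*-low *Id2*+ cells (5.13%, 0.627 to 17.3), and in experiment 2 they were 39 of 1530 (2.55%, 1.82 to 3.47) and 107 of 1063 (10.1%, 8.32 to 12.03). The intervals overlapped in experiment 1 and not in experiment 2, and with 1 sample per genotype and experiment there is no test between mice. The G3SEKO share was 6.15 times the WT share in experiment 1 and 3.95 times in experiment 2. The ratio of experiment 1 rests on single cells. With at most 5% mitochondrial reads no G3SEKO member was left there, and it was 12.3 with a *Ccr6* limit of 1.5 and 13.25 with thinned cells, while in experiment 2 these settings gave 3.95, 4.19 and 4.24.

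**Figure D4:**
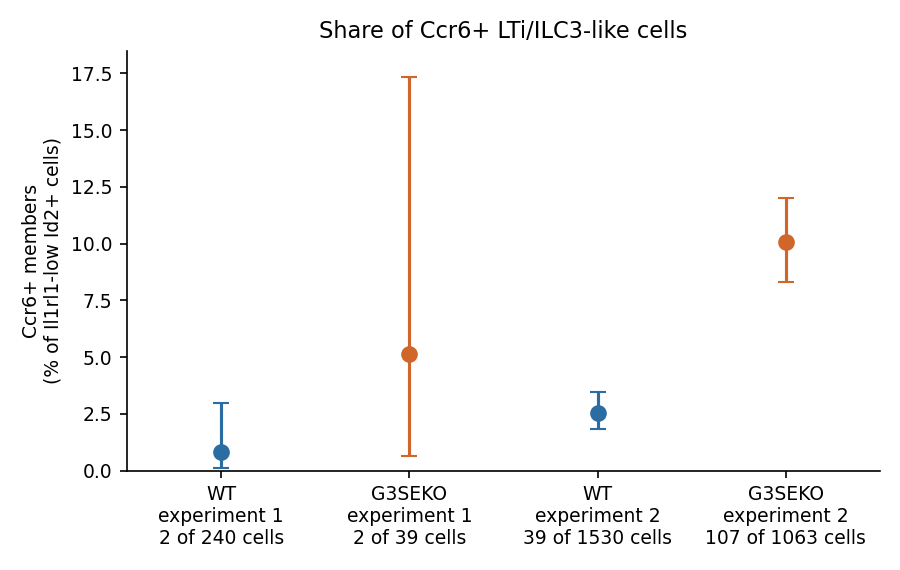
Members as a percentage of *Il1rl1*-low *Id2*+ cells in each sample (points; bars, exact binomial 95% intervals, counting error only). The share is 2.55% in WT and 10.1% in G3SEKO cells of experiment 2, with intervals that do not overlap, and the 2 wide intervals of experiment 1 rest on 2 cells each.

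A share depends on the cells it is taken of. Of all *Id2*+ cells, members were 0.294% and 4.65% in experiment 1 and 0.760% and 9.23% in experiment 2, where the *Il1rl1*+ cells that WT mice have in number enlarge the WT denominator. Set against *Zbtb16*+ cells, members were 0.0208 and 0.100 per cell in experiment 1 and 0.171 and 0.292 per cell in experiment 2. These are ratios of 4.80 and 1.71, the smallest of the 3 in each experiment. Whether members were more numerous in G3SEKO marrow cannot be told apart from fewer cells of the other kinds, since the sort fixes no number per mouse.

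Gene levels in members of the 2 genotypes were compared by size alone, as the log2 ratio of G3SEKO to WT CPM with 2 reads added to each. Of 3370 genes with enough reads, 263 (7.80%) were over 2-fold higher in G3SEKO members and 245 (7.27%) over 2-fold lower, together 15.1%, with a median of −0.04. Of the MHC class II genes, 1 of 9 compared was over 2-fold higher, with a median of 0.38. In experiment 1 the summed list went the other way, at 23368 CPM in the 2 WT and 4375 in the 2 G3SEKO members, so no direction is given for it. In members *Il23r* had a log2 ratio of 1.02, *Lta* 0.90, which is under 2-fold, and *Cxcr5* −1.18. With thinned cells these were 1.87, 1.46 and −1.90. In the other *Il1rl1*-low cells the ratios were 0.40, 1.29 and 0.95, so only that of *Cxcr5* had the opposite sign there.

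*Gata3* (chromosome 2, 9857078 to 9890034, minus strand), whose super-enhancers are deleted in G3SEKO mice, was lower in members than in the other cells in both genotypes of experiment 2. It was at 157 CPM (140 to 175) in WT and 195 (184 to 207) in G3SEKO members of experiment 2, against 937 and 455 in the other cells and 1042 and 313.02 in *Il1rl1*+ cells. The log2 change of −1.84 ± 0.37 did not pass the test (adjusted p = 0.0623). The G3SEKO to WT ratio on the log2 scale was 0.32 in members, −1.04 in the other *Il1rl1*-low cells and −1.73 in *Il1rl1*+ cells. The sign in members depended on how cells were weighted: with the mean CPM per cell the ratio was −0.45 (221 and 161 CPM) and with thinned cells −0.85, and in the 2 and 2 members of experiment 1 it was −2.93 (325 and 41.9 CPM). No direction can be given for *Gata3* in members. In the other cells the ratio stayed negative at −1.18 and −1.25.

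*Il2ra*, the α chain of the IL-2 receptor, had 388 CPM in WT and 495 in G3SEKO members of experiment 2, and 103 and 104 in those of experiment 1. The other cells had 332 and 58.8 CPM in experiment 2 against 88.1 and 12.04 in experiment 1, lower in G3SEKO cells in both. In G3SEKO cells the members lay above the other cells in both experiments, and in WT cells they lay close to them.

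**Figure D5:**
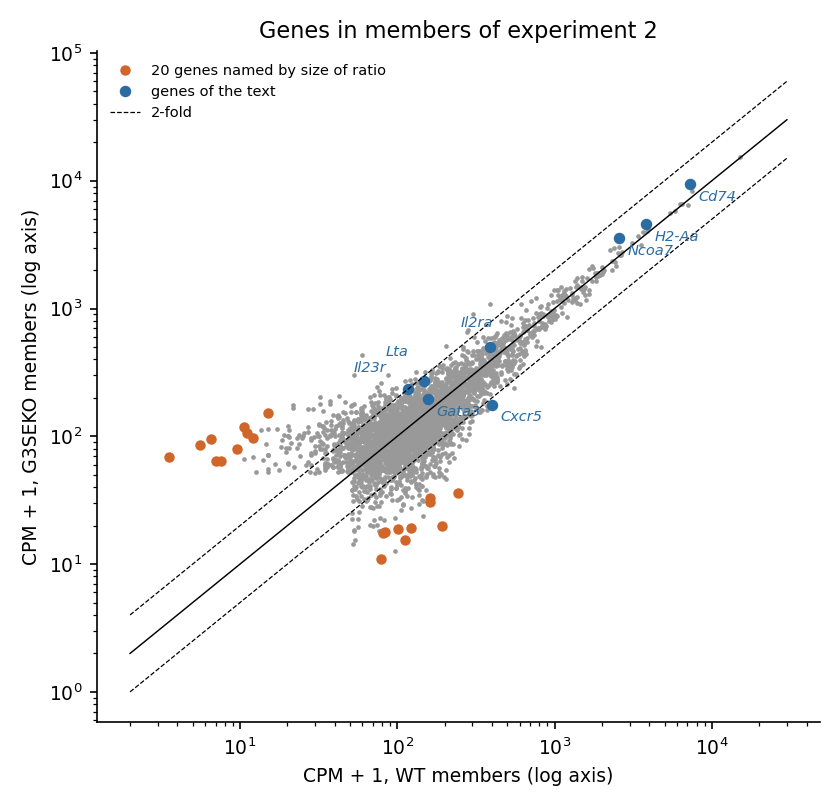
CPM + 1 of 3370 genes in summed WT (x axis) and G3SEKO (y axis) members of experiment 2, both axes log (solid line, equal levels; dashed lines, 2-fold; orange, the 20 genes named by size; blue, genes of the text). *Cd74*, *H2-Aa* and *Ncoa7* lie near the line of equality at the high end, *Cxcr5* lies below the lower dashed line, and the named genes are spread among those of low level in 1 genotype.

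The 20 genes with the largest ratios included no gene of the lists described above. Those higher in G3SEKO members ran from *Klf4* (2.52 and 68.2 CPM) to *Psme3* (log2 ratio 3.06) and included *Fam45a*, *Otub1*, *Myo1f*, *Anapc1*, *Adsl*, *Decr2* and *Miip*. *Klf4*, a zinc finger factor, had reads in 1 WT and 27 G3SEKO members, and with thinned cells its ratio was 0.13. Those lower ran from *Septin8* (191 and 18.8 CPM, −3.31), with reads in 16 members of each genotype, to *AU022252* (−2.26), of whose WT reads 63.8% came from 1 cell, and included *Trappc10*, *Sipa1l3*, *Prpf31*, *Atp6v1h*, *Fem1b*, *Sptlc1*, *Jade1* and *Nup98*. Immediate early genes were higher in 3 of 7 compared, with a median of 0.92 and a summed level of 2115 and 3902 CPM, while in the other cells the sums were 2213 and 2574. *Hspa1a*, a heat shock protein gene, was at 58.4 and 433 CPM (2.88) in members, and its log2 ratio in the other cells was 1.44. It differed between the same samples as every genotype ratio of experiment 2 given here. Its part in those ratios was not tested.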

How the data were processed

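αLPs of WT and G3SEKO mice were measured by TAS-Seq on BD Rhapsody in 2 experiments, with 1 mRNA library each. The authors trimmed reads with Cutadapt 3.4, mapped them with Bowtie2 2.4.2 to Ensembl GRCm38 release 101 transcripts and deposited raw read counts per gene and cell, not molecules, with cells limited by DropletUtils. Of 1033 and 7630 cells listed, 1 and 100 were deposited as doublets and left out, and no doublet caller was run. The libraries shared 11 cell numbers, which each library assigns on its own.

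Cells were kept with at least 83012 reads in experiment 1 or 6733 in experiment 2, and at most 10% mitochondrial reads. The members and gene lists were chosen with earlier results of these data known. Reads were summed per sample and class and tested with edgeR 4.0.16 (R 4.3.3) with TMM, filterByExpr, sample pairs as a block and the Benjamini-Hochberg adjustment at 0.05, leaving out the 5 genes of the limits. The pairs are classes of 1 library and genotype, so the block follows from the design. The named genes were those of the lists and the 10 with the largest change in each direction, leaving out Gm, Rik, ribosomal and mitochondrial genes, and for the genotypes genes with at least 50 CPM and 50 reads. DESeq2 1.42.0, RLE size factors, no filter, no block, other limits, thinning to 6733 reads and broader sums were tried. The test was checked on simulated counts. Promoters came from RefSeq, matched by symbol. Some genes of the lists are not reported here.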

Additional observations from a re-analysis of the deposited data

Results flagged for a closer look

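8 cells reached the *Ccr6* limit and met every other limit of the members except that on *Id2*, and so entered no comparison. They were 1 WT cell of experiment 1, 1 WT cell of experiment 2 and 6 G3SEKO cells of experiment 2. *Ncoa7* reads were in all 8 and *H2-Aa* reads in 7, and none had reads of *Ms4a1*, *Ebf1* or *Pax5*. *Cd79b* was at 603 CPM in the WT cell of experiment 1, and *Ighm* reads were in 1 of the 6 G3SEKO cells. The 6 G3SEKO cells had 3663 CPM of *H2-Aa*, 8509 of *Cd74*, 2430 of *Ncoa7* and 36.1 of *Id2*, levels of the first 3 near those of the members.

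*Il2ra* had a log2 ratio of G3SEKO to WT of 0.35 in members of experiment 2 and 0.02 in those of experiment 1, while in the other *Il1rl1*-low *Id2*+ cells it was −2.50 and −2.87. It was noticed because the sign in members of experiment 2 was opposite to that in the other cells of both experiments. The difference was not tested. With the mean CPM per cell the ratio in members of experiment 2 was 0.72 and in the other cells −1.98, and with thinned cells it was 0.70 in members.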

How the results depend on the processing

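The pairs of the tests are the classes of 1 genotype in 1 library. Without the replicate block, members against the other *Il1rl1*-low cells gave 0 genes higher and 0 lower in edgeR (918 and 1855 at an unadjusted p under 0.05), and members against *Il1rl1*+ cells gave 12 and 4. Leaving out a pair leaves no test. Against the other *Il1rl1*-low cells, the numbers higher and lower were 357 and 266 with DESeq2, 293 and 334 with no filter, 158 and 81 with thinned cells, and 30 and 15 when the pairs of experiment 1 with 2 members were added, a setting chosen after seeing the data. With a *Ccr6* limit of 1.5, 98 were lower, and with the other cells cut to those without *Zbtb16*, *Eomes* or *Klrd1*, 66 were higher and 32 lower. Against *Il1rl1*+ cells they were 343 and 185 with DESeq2, 17 and 8 with RLE size factors, 226 and 107 with no filter and 90 and 46 with thinned cells, and with a *Ccr6* limit of 0.5 edgeR called 0 lower (467 at an unadjusted p under 0.05).

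The number of members was 132 to 164 over *Ccr6* limits of 1.5 and 0.5. With at most 5% mitochondrial reads the G3SEKO share of experiment 1 was 0%. Without the *Il1rl1* limit the WT share of experiment 2 was 0.773% and the ratio 12.6. Between genotypes, 143 genes were over 2-fold higher and 93 lower with thinned cells, and 2059 and 1727 in experiment 1 alone. *Gata3* had a log2 ratio of −0.85 with thinned cells, −0.45 with the mean CPM per cell and −2.93 in experiment 1. For the 30 genes followed singly against the other *Il1rl1*-low cells, the alternatives that have a test kept direction and call in 183 values, lost the call in 77 and gained it in 9, and for the 11 genes against *Il1rl1*+ cells these were 69, 3 and 16. Over the 234 genes of the lists and named genes tested against the other *Il1rl1*-low cells, none (0) of the 59 called changed sign in any alternative with a test, and 64 that were not called did, *Batf3* (2.67, at lowest −0.32) and *H2-Ob* (−0.58, at highest 0.28) among them. Of the 203 against *Il1rl1*+ cells, none (0) of the 5 called and 54 not called changed sign.

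The members of experiment 1 are 4 cells, and no gene level there can be told from the level of single cells. Reads are not molecules, so intervals are too narrow for differences between cells or mice.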
